A study of Homo sapiens with 2 samples.

Results

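The miR-379 to miR-656 cluster is a long run of miRNA hairpins at 14q32, on human chromosome 14, in the imprinted region between DLK1 and DIO3. Its members were taken by name, as every listed arm and copy of the hairpins from miR-379 to miR-656, with the miR-376 family left out. This gave 67 of the 2218 mature miRNAs in the deposited table. The 67 come from 38 hairpin genes, because miR-329 and miR-1185 each have a second copy. Their levels were measured by small RNA sequencing in K562 cells, a human erythroleukaemia cell line grown in suspension. One library came from K562 cells carrying a lentivirus for GFP, the control, and 1 from K562 cells carrying a lentivirus that overexpresses QKI5. Both cultures were therefore lentivirally transduced, and no source used here gives the promoter that drives QKI5. QKI5 is the nuclear isoform of Quaking, an RNA-binding protein of the STAR family that acts in splicing and RNA processing, and the comparison asks which miRNAs differ when it is overexpressed.

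A miRNA hairpin is cut from a long primary transcript by Drosha and then by Dicer, which leaves a duplex of a 5p and a 3p arm. One arm is usually kept by an Argonaute protein and the other degraded, and the bases 2 to 8 of the kept arm, the seed, pair with target mRNAs. The 14q32 hairpins lie on 1 strand and are transcribed from the maternal chromosome as part of long noncoding transcripts. The cluster is known from brain, embryo and placenta, where miR-134 restrains LIMK1 in dendrites, and several of its miRNAs are known to be high in acute promyelocytic leukaemia.

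The GFP library rested on 23262340 reads and the QKI5 library on 6553945, a depth 3.55 times as great for GFP. Levels are in RPM, reads per 1000000 reads of that total. Reads of miRNAs made up 66.3% of it with GFP and 59.5% with QKI5, and no source used here says which other reads it counts. Ratios are QKI5 over GFP, with an exact 95% interval that covers counting error only. With a single library in each group, no replicate check was possible and no p-value is given for an effect of QKI5, and a difference between cultures cannot be told apart from one due to QKI5. Blood miRNAs fixed as markers of the labelled cells were present in both libraries, with 5 of 5 detected. Their summed level was 23356 RPM with QKI5 against 22205 RPM with GFP, mostly miR-142-3p and miR-223-3p. These and miR-486-5p were higher with QKI5. The others were lower, miR-451a at 2187 RPM with QKI5 against 2798 RPM with GFP, and miR-144-3p at 293 against 548 RPM. The 8 markers of other cell types summed to 347 RPM with QKI5 against 385 RPM with GFP. Nearly all of that was miR-9-5p, a miRNA of neurons, at 332 and 378 RPM, while the liver miR-122-5p had 0 and 1 reads.

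The mature sequences below come from RefSeq (GRCh38.p14), which matched 66 of the 67 members. miR-668-3p is named only. Seeds are in capitals. The first set shows some of the members that share a seed, or have the same seed moved by 1 base. Such arms could act on the same targets while their levels need not move together.

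miR-154-3p: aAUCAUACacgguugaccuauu
miR-487a-3p: aAUCAUACagggacauccaguu
miR-485-3p: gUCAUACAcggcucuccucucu
miR-539-3p: aUCAUACAaggacaauuucuuu
miR-369-3p: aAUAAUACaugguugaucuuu
miR-655-3p: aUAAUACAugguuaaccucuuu
miR-379-3p: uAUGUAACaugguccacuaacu
miR-411-3p: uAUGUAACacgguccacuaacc
miR-381-3p: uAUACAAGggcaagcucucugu
miR-300: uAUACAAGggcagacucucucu
miR-1185-1-3p: aUAUACAGggggagacucuuau
miR-1185-2-3p: aUAUACAGggggagacucucau
miR-487a-5p: gUGGUUAUcccugcuguguucg
miR-487b-5p: gUGGUUAUcccuguccuguucg

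The second set shows the other arms that differed most between the libraries, and the partner arms they are set against.

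miR-539-5p: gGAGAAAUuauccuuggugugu
miR-369-5p: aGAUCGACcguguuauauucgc
miR-379-5p: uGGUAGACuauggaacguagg
miR-654-5p: uGGUGGGCcgcagaacaugugc
miR-134-5p: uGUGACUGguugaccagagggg
miR-154-5p: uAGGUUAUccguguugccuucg
miR-758-3p: uUUGUGACcugguccacuaacc
miR-495-3p: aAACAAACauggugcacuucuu
miR-543: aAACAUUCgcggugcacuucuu

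All 67 members had at least 1 read in 1 of the libraries. Together they were at 18119 RPM with QKI5 against 22126 RPM with GFP, 1.22-fold lower (1.21 to 1.23). That was 3.05% of the miRNA reads of the QKI5 library (95% Wilson interval 3.03% to 3.06%) and 3.34% of those of the GFP library (3.33% to 3.35%). Most of the difference in this sum lay in 1 arm. miR-381-3p, the most abundant member, was at 4099 RPM with QKI5 against 7409 RPM with GFP, and held 33.5% of the cluster's summed level with GFP and 22.6% with QKI5. Without it the sum was 14019 RPM with QKI5 against 14717 RPM with GFP, 1.05-fold lower (1.04 to 1.06).

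Other abundant members went both ways. miR-379-5p, from the first hairpin of the cluster, was at 2170 RPM with QKI5 against 914 RPM with GFP. miR-329-3p, which with miR-134 acts in the outgrowth of dendrites, was nearly level, at 1315 RPM with QKI5 against 1449 RPM with GFP, a ratio of 0.908 (0.886 to 0.929). Its reads cannot be assigned to 1 of its 2 hairpin copies. miR-409-3p was at 1293 RPM with QKI5 against 715 RPM with GFP, 1.81-fold higher (1.76 to 1.86). miR-654-3p was at 790 and 1196 RPM in the same order, 1.51-fold lower (1.47 to 1.56). The rest of the 10 most abundant members, beside miR-154-3p, were miR-299-5p, miR-485-3p, miR-487b-3p and miR-382-5p. Of these, miR-487b-3p was the lower one in the QKI5 library, at 461 RPM against 694 RPM. miR-299-5p was at 1082 RPM against 834 RPM.

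Of the 67 members, 47 were among the 400 most abundant miRNAs by the mean of both libraries, the set over which calls were made. They had at least 40 reads with QKI5 and at least 174 with GFP. On the log2(RPM + 0.153) scale, 32 of the 47 had a log2 ratio below 0 and 15 above. Below 0 lay 42.0% of all 400. The cluster's median log2 ratio was -0.29 against 0.21 for all 400, with quartiles at -0.80 and 0.26. The counting interval lay wholly below a ratio of 1 for 26 members and wholly above it for 15. Of all 400, it lay wholly below 1 for 130, wholly above for 193, and spanned 1 for 77. It spanned 1 for 6 members, namely miR-1185-2-3p, miR-487b-5p, miR-655-5p, miR-485-5p, miR-377-3p and miR-410-3p. The nearest to level was miR-410-3p, at 173.6 RPM with QKI5 against 174.1 RPM with GFP.

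At least 2-fold higher with QKI5 were 4 of the 47 members, and 20.8% of all 400 were so. At least 2-fold lower were 6 of the 47, and 7.25% of all 400 were. Higher members thus made up 4 of 10 calls. The split was 3 higher and 11 lower under quantile normalization, 6 and 5 with each column scaled to its miRNA sum, and 3 and 6 with each scaled to that sum less the 10 most abundant miRNAs. Of all 400, the shares higher and lower in the same way were 13.5% and 11.2% under quantile normalization, 23.8% and 5.50% with the miRNA sum, and 17.5% and 8.50% with the sum less the 10. The members just inside 2-fold were miR-654-5p (log2 ratio 1.09), miR-539-3p (-1.11) and miR-543 (-1.16). Just outside were miR-380-3p (0.95), miR-1197 (-0.88), miR-495-5p (-0.87) and miR-381-5p (-0.87).

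**Figure D1:**
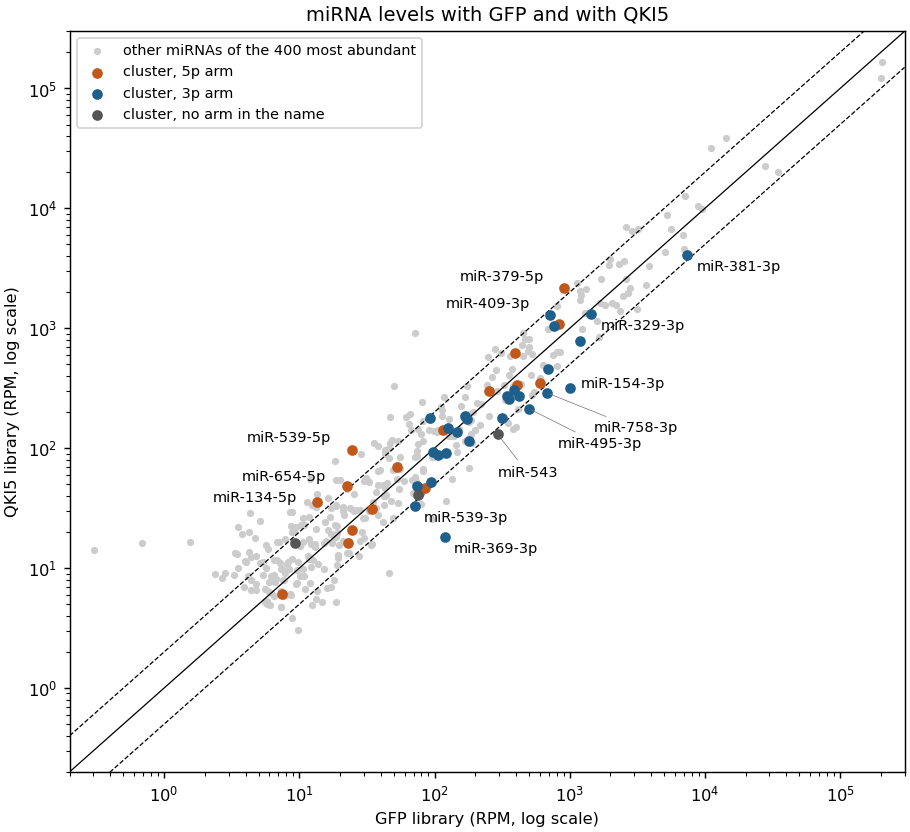
Level of each miRNA in the GFP library (horizontal axis) and the QKI5 library (vertical axis), in RPM on log scales. Points are the 400 most abundant miRNAs, coloured for the 47 cluster members by arm; the solid line marks equal levels and the dashed lines 2-fold. The 4 members above the upper dashed line are all 5p arms, and miR-369-3p lies farthest below the lower one.

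The 4 higher members were all 5p arms. miR-539-5p had 97.5 RPM with QKI5 against 24.4 RPM with GFP, from 639 and 567 reads. miR-134-5p, the neuronal regulator of LIMK1, had 35.2 RPM with QKI5 against 13.5 RPM with GFP, 2.60-fold higher (2.19 to 3.09). It was a minor member in these cells, at rank 257 of all miRNAs. miR-379-5p was 2.37-fold higher (2.32 to 2.42), the only 1 of the 4 above 100 RPM in both libraries. miR-654-5p was at 48.1 RPM with QKI5 against 22.5 RPM with GFP, 2.14-fold higher (1.85 to 2.46), so its interval reached below 2-fold. It was under 2-fold with quantile normalization, with the columns scaled to the miRNA sum less the 10 most abundant, and after a linear GC trend was taken out.

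The 6 lower members were miR-543, whose name gives no arm, and 5 arms from the 3p side of their hairpins. miR-369-3p, known to bind an AU-rich element of TNF mRNA, had 119 reads or 18.2 RPM with QKI5 and 2789 reads or 120 RPM with GFP. miR-154-3p went from 1012 RPM with GFP to 320 RPM with QKI5. miR-758-3p was at 290 RPM with QKI5 against 676 RPM with GFP, and miR-495-3p was at 214 and 497 RPM. These were abundant miRNAs, so counting error was small beside the differences. miR-543 had 131 RPM with QKI5 against 293 RPM with GFP. miR-539-3p was the least abundant of the 6 with GFP, at 33.0 RPM with QKI5 against 71.5 RPM with GFP, 2.17-fold lower (1.88 to 2.51). Its interval was the only 1 of the 6 to reach inside 2-fold, and its call was lost with the columns scaled to their miRNA sums and after removal of a GC trend. The removal of that trend also ended the call of miR-495-3p.

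The arms of the cluster differed in direction. Among the 27 3p arms of the 400, 22 were below 0 and 5 above, and 43.9% of all 173 3p arms were below 0. Among the 17 5p arms of the cluster, 8 were below 0 and 9 above, and 43.4% of all 173 5p arms were below 0. The median log2 ratio was -0.47 for the cluster's 3p arms and 0.24 for its 5p arms, against 0.11 and 0.23 for all 3p and 5p arms. The 5 above 0 on the 3p side were miR-380-3p, miR-409-3p, miR-485-3p, miR-323b-3p and miR-323a-3p. With the columns scaled to their miRNA sums 18 of the 27 3p arms were below 0, and with a GC trend removed 17, while the count for 5p arms stayed at 8. Summed over all members, the 3p arms were at 12480 RPM with QKI5 against 17816 RPM with GFP, 1.43-fold lower (1.42 to 1.44). The 5p arms were at 5449 RPM with QKI5 against 3923 RPM with GFP, 1.39-fold higher (1.37 to 1.41). Both sums lean on 1 arm, since without miR-381-3p the 3p sum was 1.24-fold lower (1.23 to 1.25) and without miR-379-5p the 5p sum was 1.09-fold higher (1.07 to 1.11).

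Both arms of 16 hairpins were among the 400. The share of the 3p arm in a hairpin's reads does not change when a column is multiplied by 1 factor, since both arms come from the same library, but quantile normalization can move it. The 3p ratio lay below the 5p ratio in 12 of the 16 hairpins, and in 56.9% of all 102 hairpins with both arms among the 400. The arms were at least 2-fold apart in 6 of the 16, and in 40.2% of the 102, so a gap of this size was common in these libraries. In all 6 the 3p arm was the lower one with QKI5, while the 35 such hairpins outside the cluster divided into 17 with the 3p arm lower and 18 with it higher. This did not extend to rarer arms. With no level filter, 13 of the 29 cluster hairpins with both arms detected were 2-fold apart, 8 with the 3p arm lower and 5 with it higher, against 142 and 113 of all 579. Both miR-412 and miR-668, among those 5, rest on an arm with 0 reads in the QKI5 library. The 6 were miR-539, miR-369, miR-654, miR-379, miR-382 and miR-487a. All but miR-487a stayed 2-fold apart under quantile normalization, a pseudocount of 1 RPM, thinning of the GFP reads and removal of a GC trend; its smallest gap was 0.70 on the log2 scale. Rescaling a column by 1 factor cannot move the gap beyond the effect of the pseudocount.

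miR-539 changed its major arm. Its 3p arm held 74.6% of the hairpin's 2231 reads in the GFP library and 25.3% of the 855 reads in the QKI5 library (95% Wilson interval 22.5% to 28.3%). The 3p arm was lower and the 5p arm higher with QKI5, 8.62-fold apart. In miR-369 the 5p arm was the major one in both libraries, and the 3p arm went from 32.1% of reads with GFP to 5.72% with QKI5 (4.80% to 6.80%). The 5p arm of miR-369 was nearly level, at 299.4 RPM with QKI5 against 254 RPM with GFP, a ratio of 1.18 (1.12 to 1.24). Only the 3p arm of this hairpin thus passed 2-fold.

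In miR-154 both arms were lower with QKI5, the 5p arm by less. miR-154-5p was at 352 RPM with QKI5 against 607 RPM with GFP, 1.72-fold lower (1.65 to 1.80), while miR-154-3p was 3.17-fold lower (3.03 to 3.31). The 3p arm therefore went from 62.5% to 47.6% of the reads, and the major arm differed between the libraries. Such a difference was seen in 2 of the 16 cluster hairpins, miR-539 and miR-154, and in 6.86% of the 102.

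miR-379, miR-382 and miR-487a showed the 5p arm higher and the 3p arm lower. miR-379-3p was at 87.4 RPM with QKI5 against 107 RPM with GFP, so its share went from 10.4% to 3.87%. miR-382-5p was at 627 RPM with QKI5 against 391 RPM with GFP, and miR-382-3p at 52.5 and 94.7 RPM. The 3p share of miR-382 went from 19.5% to 7.73%. miR-487a-5p was at 70.3 RPM with QKI5 against 53.1 RPM with GFP, and miR-487a-3p at 114 and 181 RPM. Its 3p share went from 77.4% to 61.8%. For miR-654 the 3p arm stayed dominant, at 98.2% with GFP and 94.3% with QKI5, although its arms were 3.22-fold apart.

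The remaining 9 hairpins showed smaller gaps, and 4 hairpins in all had the 3p ratio above the 5p ratio, namely miR-381, miR-377, miR-409 and miR-485. The arms of miR-381 had equal ratios within their counting intervals, 0.553 for the 3p arm and 0.547 for the 5p arm, which was at 46.4 RPM with QKI5 against 84.7 RPM with GFP. The 3p share of miR-381 was 98.9% in both libraries. In miR-495 both arms were lower, with ratios of 0.431 for the 3p arm and 0.547 for the 5p arm. miR-409 had both arms higher, its 5p arm at 141 RPM with QKI5 against 116 RPM with GFP. The 3p share of miR-299 went from 29.1% with GFP to 20.0% with QKI5, and that of miR-411 from 43.9% to 34.9%. The 3p arm held 93.7% of the miR-487b reads and 97.8% of the miR-655 reads with QKI5, against 95.2% and 98.3% with GFP.

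**Figure D2:**
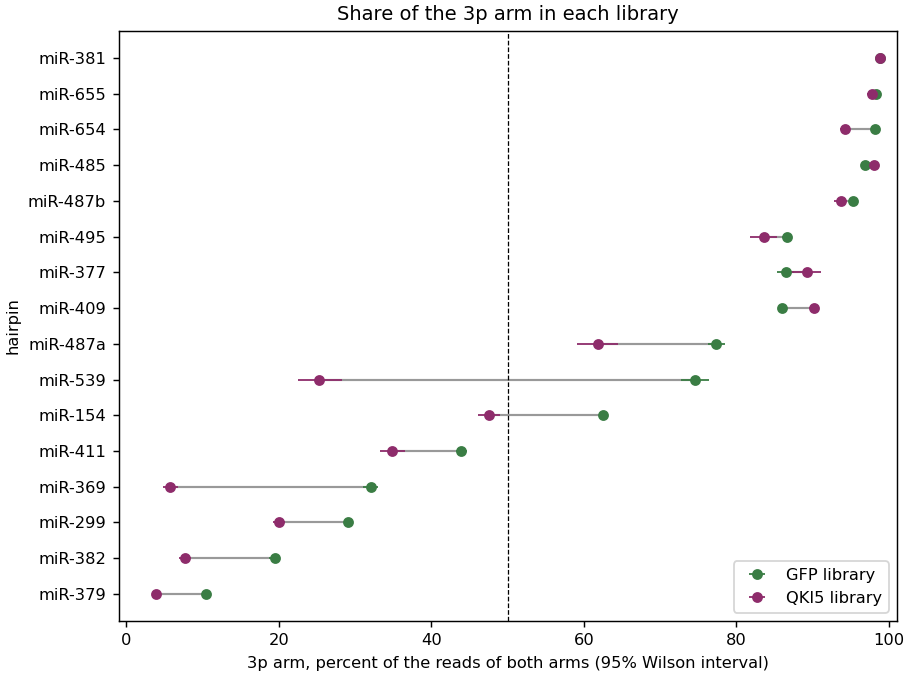
Share of the 3p arm in the reads of both arms, in percent with 95% Wilson intervals, for the 16 cluster hairpins with both arms among the 400 most abundant miRNAs, in the GFP (green) and QKI5 (purple) libraries. The dashed line marks an equal split; miR-539 (74.6% to 25.3%) and miR-154 (62.5% to 47.6%) cross it, and in 12 of the 16 hairpins the QKI5 point lies to the left.

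Members with the same seed did not always have the same ratio. The pair miR-485-3p and miR-539-3p, with seed UCAUACA, diverged. miR-485-3p was at 1045 RPM with QKI5 against 763 RPM with GFP, 1.37-fold higher (1.33 to 1.41), while miR-539-3p was 2.17-fold lower. Since miR-485-3p was far more abundant, the summed level of this seed was higher with QKI5, at 1078 RPM against 834 RPM. miR-154-3p and miR-487a-3p share AUCAUAC, which is the same stretch moved by 1 base, and both were lower. Their sum was 434 RPM with QKI5 against 1194 RPM with GFP, and miR-487a-3p alone was 1.59-fold lower (1.47 to 1.72).

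miR-369-3p and miR-655-3p also carry the same stretch moved by 1 base. miR-655-3p was at 275 RPM with QKI5 against 425 RPM with GFP, 1.55-fold lower (1.47 to 1.63), well short of the 6.60-fold of miR-369-3p (5.50 to 8.0). The pair miR-379-3p and miR-411-3p differ at 2 positions of their mature sequences, so reads could match both, and no source used here says how such reads were assigned. miR-411-3p was at 180.0 RPM with QKI5 against 318 RPM with GFP, 1.76-fold lower (1.66 to 1.88), and miR-379-3p 1.22-fold lower (1.11 to 1.34). The 3p arms from the 2 copies of miR-1185 differ at 1 position. miR-1185-1-3p was at 257 RPM with QKI5 against 356 RPM with GFP, and miR-1185-2-3p at 92.8 and 96.9 RPM. The seed AUACAAG of miR-381-3p is shared with miR-300, which had 2 reads with QKI5 and 17 with GFP and added almost nothing to it. miR-487a-5p and miR-487b-5p share UGGUUAU and stood at ratios of 1.32 (1.19 to 1.48) and 0.897 (0.766 to 1.05). The seed of miR-654-5p is shared with miR-541-3p, which had 2 and 5 reads. miR-154-5p and miR-655-5p have the same seed moved by 1 base. Their ratios were 0.580 (0.555 to 0.606) and 0.816 (0.564 to 1.16). The seed GGUUGUC is shared by miR-323b-5p, miR-410-5p and miR-494-5p, none of them among the 400, which summed to 6.71 RPM with QKI5 against 8.90 RPM with GFP. Of the 311 miRNAs outside the cluster that were among the 400 and had a sequence, 1 had the seed of any of the 47 members, miR-362-3p with that of miR-329-3p.

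By place, the hairpins were ordered with RefSeq and set against the long noncoding RNA genes of GENCODE release 29. Both annotations are on GRCh38 while the authors mapped to hg19, so no positions are given. The first 13 hairpin genes, from miR-379 to miR-495, lie in introns of MEG8. Of the 15 members from them among the 400, 11 were below 0 and 4 above, with a median log2 ratio of -0.33. The stretch from miR-381 to miR-655 lies in introns of MIR381HG and had 8 of 9 members below 0, with a median of -0.59. The exception was miR-539-5p. Its other members included miR-889-3p, at a ratio of 0.749, and miR-655-5p, at 0.816. Of the 6 members from MEG9, 3 were above 0 and 3 below, with a median of 0.12. There miR-410 overlaps an exon and the others lie in introns, and miR-656-3p was at 48.8 RPM with QKI5 against 73.7 RPM with GFP. Outside these genes lay 17 members, 7 above 0 and 10 below, with a median of -0.11. Below 0 lay 32 of the 47 members in all and 42.0% of all 400, and the differences between these stretches were not tested.

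Some neighbouring hairpins had unlike ratios, and the examples here were chosen after their values were seen. The hairpins of miR-380 and miR-1197 are adjacent, and miR-380-3p was 1.93-fold higher (1.80 to 2.07) while miR-1197 was 1.84-fold lower (1.62 to 2.10). Next to them miR-323a-3p was at a ratio of 1.11 (1.04 to 1.18) and miR-758-3p was 2.33-fold lower (2.22 to 2.45). Farther along, miR-494-3p was at 303 RPM with QKI5 against 386 RPM with GFP. Toward the end of the cluster, miR-154 was lower in both arms while its neighbours miR-323b-3p and miR-496 were higher, at ratios of 1.17 (1.08 to 1.26) and 1.76 (1.38 to 2.23). miR-377-3p, after miR-496, stood at 0.929 (0.862 to 1.001) and miR-377-5p at 0.713 (0.573 to 0.878).

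**Figure D3:**
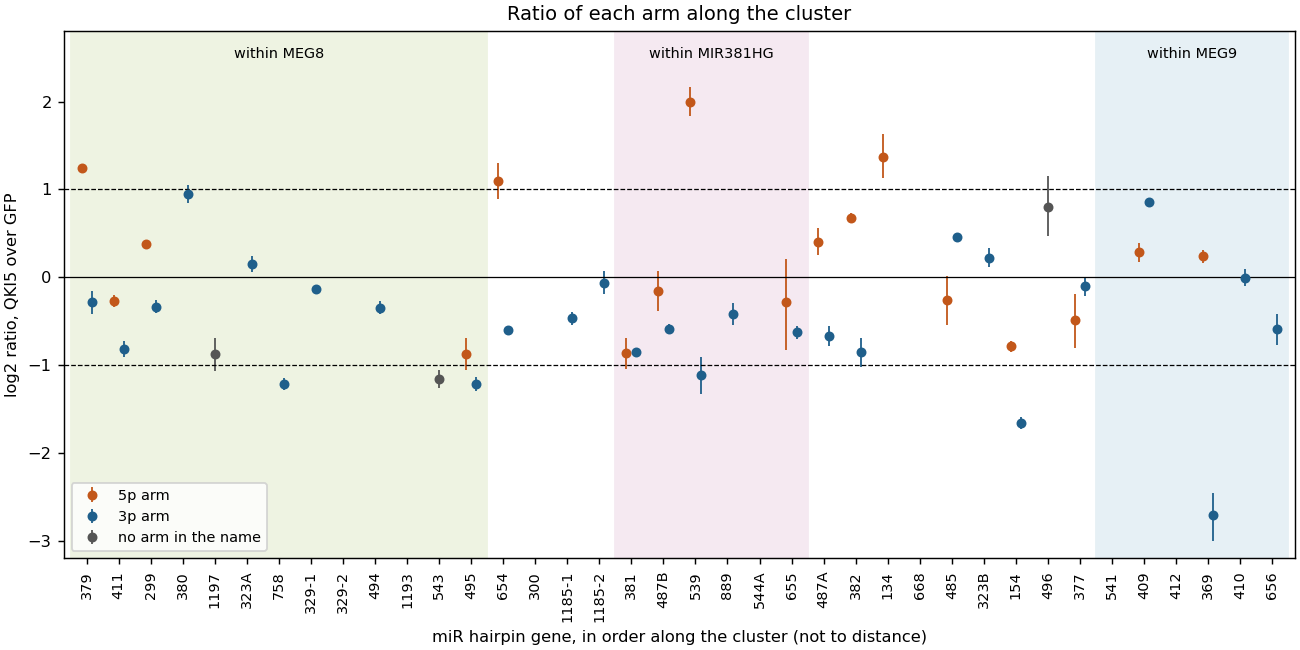
Log2 ratio of QKI5 over GFP for the 47 members among the 400 most abundant miRNAs, by hairpin gene in order along the cluster (spacing not to distance). Bars are 95% counting intervals, dashed lines mark 2-fold, shading marks long noncoding RNA genes of GENCODE, and hairpins with no point had no arm among the 400 or share a mature miRNA with the copy before them; the 5p and 3p points of miR-539 and miR-369 lie far apart.

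Base composition moved with the ratios. GC content of the mature sequence, known for 358 of the 400, had a Spearman correlation with the log2 ratio of 0.33 across them and 0.43 across the 47 members. These are correlations across miRNAs of the same 2 libraries, which are not independent replicates. Cluster 3p arms were poor in GC, with a median of 40.9% against 47.8% for the cluster's 5p arms and 47.6% for all of the 358. Among 3p arms at or below the median GC of the 400, 21 of 22 in the cluster were below 0, against 30 of 62 outside it. Their median log2 ratios were -0.59 and 0.01. The median GC of these arms was 38.1% in the cluster and 40.0% outside, so they were not matched in GC. Among 3p arms above the median GC of the 400, 1 of 5 in the cluster was below 0, against 20 of 70 outside. That 1 was miR-758-3p. The exception among the GC-poor 3p arms was miR-380-3p, at 178 RPM with QKI5 against 92.1 RPM with GFP and a GC content of 31.8%. Among 5p arms at or below the median GC of the 400, 4 of 8 in the cluster were below 0, against 37 of 78 outside. Among 5p arms above it, 4 of 9 in the cluster were below 0, against 23 of 62 outside. miR-369-3p had the lowest GC content of the members, 23.8%, and the lowest ratio. After a linear GC trend was taken out, the cluster's median was -0.094. The 2-fold calls then stood at 4 members higher (miR-380-3p among them, miR-654-5p no longer) and 4 lower. Of the 358 with a known sequence, 17.6% were called higher in that setting and 5.59% lower. The arms of miR-539 and miR-369 remained over 2-fold apart. The part of base composition in these ratios was not tested beyond this.

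**Figure D4:**
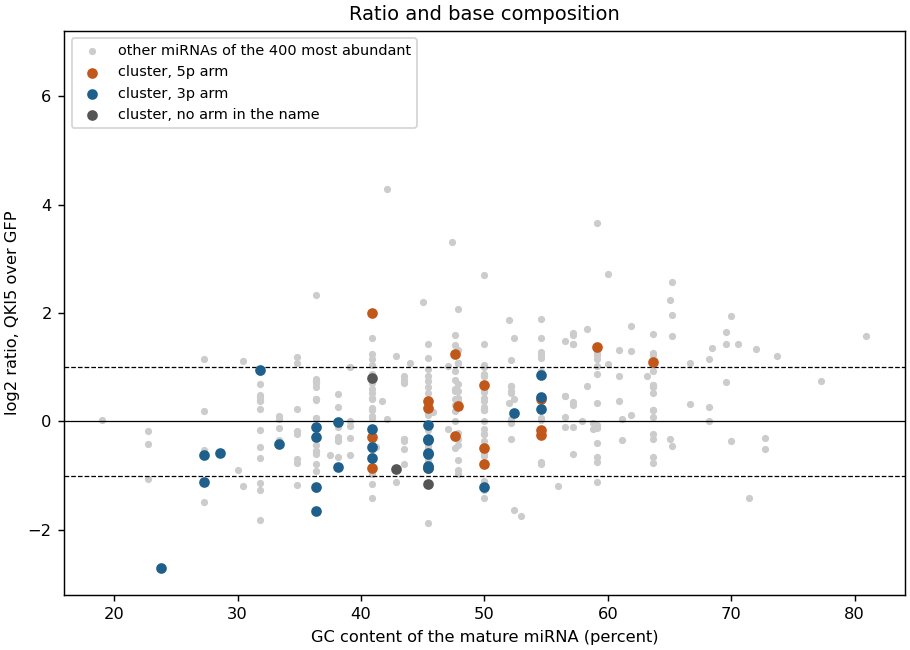
Log2 ratio of QKI5 over GFP (vertical axis) against GC content of the mature miRNA in percent (horizontal axis), for the 358 of the 400 most abundant miRNAs with a RefSeq sequence. Cluster members are coloured by arm, other miRNAs are grey, and dashed lines mark 2-fold; the cluster's 3p arms crowd at low GC and below 0, with miR-369-3p at the lower left.

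QKI proteins bind RNA at a known element, searched here as ACUAAC or ACUAAU on the RNA strand as listed. Its half-site was searched as UAAC only, which lies within ACUAAC. The stretch UAAU, which lies within ACUAAU, was not searched, so the half-site counts below leave it out. It stands in miR-369-3p, miR-380-3p, miR-655-3p and miR-889-3p, for example. Among 36 cluster hairpins with a sequence, 3 held ACUAAC or ACUAAU (8.33%), against 24 of 1562 hairpins in the whole RefSeq table (1.54%). All 3 matches were ACUAAC, and all lay in a mature 3p arm, shown here with the match in capitals.

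miR-379-3p: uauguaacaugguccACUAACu
miR-411-3p: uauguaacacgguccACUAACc
miR-758-3p: uuugugaccugguccACUAACc

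They made 4.55% of the 66 mature members with a sequence, and 0.464% of all 2370 mature sequences hold a match. The 3 hairpins are close relatives, so these are not independent occurrences. All 3 arms were lower with QKI5, with ratios of 0.820 for miR-379-3p, 0.567 for miR-411-3p and 0.429 for miR-758-3p, but 22 of 27 cluster 3p arms were below 0. Outside the cluster 1 of the 311 held a match, with a log2 ratio of 0.56. UAAC stood in 7 of the 36 hairpins (19.4%) and in 12.5% of all hairpins. Its mature matches without the longer element were miR-329-3p, miR-410-3p and miR-655-3p, at ratios of 0.908, 0.997 and 0.646. A match describes letters only and was not tested as a site.

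The other 20 members lay below the 400, at no more than 9.20 RPM in either library. Most were the minor arms of hairpins already described, and 15 had at least 10 reads in a library. Of the 20, 6 had a ratio above 1 and 14 below, and 47.6% of all 1595 detected miRNAs below the 400 had a ratio below 1. Among the 15, miR-668-3p was highest, with 26 reads against 29 in the deeper GFP library, 3.18-fold higher (1.80 to 5.60). miR-323a-5p followed with 37 and 54 reads, 2.43-fold higher (1.56 to 3.76). miR-544a was lowest, with 10 reads with QKI5 and 214 with GFP, 6.03-fold lower (3.22 to 12.8), and miR-412-5p had 5 and 68 reads, 3.83-fold lower (1.56 to 12.2). The intervals of these 4 were wide, yet each lay to 1 side of an equal level. With 0 reads in the QKI5 library, miR-412-3p and miR-668-5p had 1 and 2 reads in the GFP library. A count of 0 there allows up to 3 reads, or 0.458 RPM, so a difference was not detectable at this depth.

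Nearby 14q32 lists gave the following values, with no test of any difference between lists. The miR-376 family, which lies inside the cluster, had 5 of 7 members among the 400 below 0, a median log2 ratio of -0.34, and 0 past 2-fold either way. The miRNAs antisense to RTL1 had 5 of 9 below 0, a median of -0.32, and 1 past 2-fold each way. The list taken for the MEG3 side held the arms of miR-493, miR-337, miR-665, miR-770, miR-2392 and miR-370. It had 2 of 9 below 0, a median of 0.40, and 2 at least 2-fold higher. These 2 were miR-2392 (log2 ratio 2.72) and miR-370-3p (1.15). Of miR-1247, beside DIO3, no arm was among the 400. The miR-376 family, at 31900 RPM with QKI5 against 37238 RPM with GFP, was thus more abundant than the 67 members together in both libraries.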

How the data were processed

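Small RNA was isolated from total RNA and sequenced on an Ion Torrent Proton instrument, per the labels' protocols. Alignment used Bowtie 0.12.3 and hg19, per the submitters' processing notes. No source used here gives the miRNA annotation, the mismatches or the handling of reads with several matches. The authors deposited values named RPKM that are in fact RPM, since 100.0% of those above 0 in each column were whole multiples of 1 step, within 0.1 of a read. The step was 0.0430 RPM with GFP and 0.153 RPM with QKI5, and reads and library totals were recovered from it.

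The log2 ratio used a pseudocount of 0.153 RPM, which understates ratios of rare miRNAs; folds are plain ratios with exact conditional binomial (Clopper-Pearson) 95% intervals. The reads carry no molecular identifiers, so intervals cover counting error only. A call was a log2 ratio of 1 or more either way within the 400 most abundant miRNAs by mean. Values are given for members past 2-fold, the 10 most abundant members, arms at least 2-fold apart, families of members that share a seed with 2 or more among the 400, and the 2 highest and 2 lowest rarer members with 10 or more reads; a few others were named as examples after their values were seen. With 1 library per group no count model with a spread could be fitted. An exact binomial test on recovered reads, Benjamini-Hochberg adjusted at 0.05, was added after seeing the data. It compares these libraries, not the conditions. Such a test reaches abundant miRNAs more readily, and 47 of the 67 members are among the 400. Its counts over the members and over all detected miRNAs are therefore not like for like and are not given. The members and lists were chosen with earlier results of these data known. The log2 ratios and counting intervals were tested on simulated reads with known folds and counting error only. No spread between cultures was simulated, and the arm, seed, motif and GC steps were not tested in this way. Python 3.11.15, numpy 2.4.6, scipy 1.17.1, pandas 2.3.3 and matplotlib 3.10.9 were used.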

Additional observations from a re-analysis of the deposited data

How the results depend on the processing

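Over the 8 alternatives that gave a median, the cluster's median log2 ratio of -0.29 stayed below 0. It was -0.35 over the 200 most abundant miRNAs, -0.34 with the GFP reads thinned to QKI5 depth and with no level filter, -0.40 under quantile normalization, -0.39 with columns scaled to their miRNA sums less the 10 most abundant, -0.13 with columns scaled to their full miRNA sums, -0.28 with a pseudocount of 1 RPM, and -0.094 with a linear GC trend removed. Quantile normalization, the sum less 10 and the full sum moved the median of all 400 by -0.22, -0.11 and 0.15. The cluster's median minus that median was -0.50 as deposited, -0.39, -0.50 and -0.50 under these, -0.48 with the pseudocount, -0.55 with thinning and -0.30 with the GC trend removed. The count of 4 members at least 2-fold higher became 2 among the 200 most abundant and 1 at 3-fold. The count of 6 lower became 2 at 3-fold, 10 with no level filter and 11 under quantile normalization. No share of all miRNAs is given for the 3-fold, 200 and no-filter settings. The counts of higher and lower members at these settings are therefore not set against a background here. The 6 hairpins with arms 2-fold apart became 3 at 3-fold, for which no share of all hairpins is given. With no level filter they became 13, of which 8 had the 3p arm lower and 5 higher. Under the 6 changes of scaling, pseudocount, depth and composition, miR-134-5p, miR-379-5p and miR-539-5p stayed at least 2-fold higher, and miR-154-3p, miR-369-3p, miR-543 and miR-758-3p at least 2-fold lower. The cause of these shifts was not tested. No paired analysis was possible because each group has 1 library, and no library could be left out. Depth in the QKI5 library limits the members below 10 reads, where ratios have wide intervals.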
